A study of Mus musculus with 7 samples.

Results

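The genes described here are both mouse insulin genes, Ins1 and Ins2, and 6 genes of prohormone processing and insulin storage. The 6 include the prohormone convertase genes Pcsk1 and Pcsk2, the carboxypeptidase gene Cpe and the amidating monooxygenase gene Pam. The others are the convertase chaperone gene Scg5 and the granule zinc transporter gene Slc30a8. All 8 were picked by gene symbol and were found among the 55487 genes of the count table. RNA had been sequenced from isolated pancreatic islets of 3 Traf6 KO mice and 4 control mice, all fed for 15 weeks on a 60% high-fat diet. Islets recovered in culture medium for 24 hours before RNA was taken, and each library is taken as 1 mouse. The design text calls the Traf6 knockout beta-cell specific, but the sources used here do not name the Cre driver, so whether any of these mice carries a modified insulin allele is not known from them and was not tested. They also give no strain, age or sex, and do not say what alleles the controls carry. The study's title concerns TRAF6, innate immune signals, glucose homeostasis and mitophagy, and the contrast of genotypes asks which islet transcripts differ once Traf6 is removed from beta cells.

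Insulin is made as preproinsulin, which loses its signal peptide and folds in the endoplasmic reticulum of the beta cell. Proinsulin is packed into secretory granules, where the convertases PC1/3 (from Pcsk1) and PC2 (from Pcsk2) cut at pairs of basic residues that flank the C-peptide. Carboxypeptidase E (from Cpe) trims the basic residues left behind, and insulin is stored around zinc that ZnT8 (from Slc30a8) brings into the granule. The small protein 7B2 (from Scg5) assists the maturation of PC2. PAM amidates peptides that end in glycine, among them amylin, and is not needed for insulin itself. Mice, unlike most mammals, hold a pair of functional insulin genes.

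The coding sequences below show the cleavage sites that the convertases act on, and how alike the insulin genes are at these sites, which matters for how reads are split between them. Each stretch of 42 bases reads 5′ to 3′ on the coding strand, from GENCODE release M21 on GRCm38. Capitals mark the codons of the basic pair, arginine-arginine at the end of the B chain and lysine-arginine at the start of the A chain. The Ins1 stretches lie at chr19:52264768-52264809 and chr19:52264861-52264902 on the plus strand, and the Ins2 stretches at chr7:142679348-142679389 and chr7:142678761-142678802 on the minus strand.
Ins1, B chain to C-peptide: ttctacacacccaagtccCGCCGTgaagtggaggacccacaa
Ins2, B chain to C-peptide: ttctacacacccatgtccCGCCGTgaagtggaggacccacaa
Ins1, C-peptide to A chain: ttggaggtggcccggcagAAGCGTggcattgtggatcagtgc
Ins2, C-peptide to A chain: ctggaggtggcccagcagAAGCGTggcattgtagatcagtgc

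The first site begins at codon 55 in both genes, and the stretches around it share 41 of 42 bases. The second begins at codon 86 of 108 in Ins1 and codon 88 of 110 in Ins2, and those stretches share 39 of 42 bases. Over the aligned coding sequences of 324 bases in Ins1 and 330 in Ins2, identity was 90.9%. In spite of that, 0 of 912 windows of 151 bases, the read length, in the Ins1 transcript occurred in an annotated Ins2 transcript, and 0 of 328 windows of Ins2 occurred in Ins1. Of windows of 31 bases, 47 of 1032 in Ins1 were shared. A read of full length within either transcript therefore held at least 1 base that differs, although the rule by which the deposited counts treated mismatched reads is not given.

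The 250 bases before the start of Ins1 (RefSeq, GRCm38.p6, chr19:52264047-52264296, plus strand) are shown since Ins1 had the largest fold change of the 8 genes. Capitals mark the letters TAAT, the core that homeodomain factors such as PDX1 bind, and CATCTG, an E-box form that NEUROD1 can bind, each on either strand.
Ins1 promoter: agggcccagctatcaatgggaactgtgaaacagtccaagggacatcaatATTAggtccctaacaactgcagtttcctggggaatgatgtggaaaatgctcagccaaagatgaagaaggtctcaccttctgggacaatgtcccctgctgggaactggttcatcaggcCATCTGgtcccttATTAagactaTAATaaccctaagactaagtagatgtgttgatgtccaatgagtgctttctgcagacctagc

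TAAT or its reverse ATTA occurred 3 times in this window. Of the 32851 windows of the same length before RefSeq starts, 54.9% held it at least once and 17.3% at least 3 times. CATCTG or its reverse CAGATG occurred once, and 14.4% of those windows held it. The motif matches did not overlap one another.

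Library totals ran from 22104256 to 25091055 counts in Traf6 KO and from 22161097 to 29917292 in control. All 9 genes of a beta-cell marker list and all 9 of an alpha-cell list had counts in these islet libraries. Exocrine RNA differed widely: 33 of 33 acinar markers had counts, and together they took 56.6%, 43.3% and 1.64% of counts in Traf6 KO 1 to 3, against 20.4%, 0.490%, 0.467% and 3.24% in control 1 to 4. Traf6 KO 1, Traf6 KO 2 and control 1 are called acinar-rich below. Traf6 itself stood at 14.8, 15.4 and 14.5 CPM in Traf6 KO 1 to 3 and 17.9, 25.5, 22.1 and 12.7 CPM in control 1 to 4. The library labelled control 4 thus lay below each Traf6 KO library, and the log2 fold change was -0.40 ± 0.22 (SE). CPM here is a count per library size after TMM scaling, which sets libraries on a common scale by the bulk of their genes.

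Insulin transcripts held a smaller part of Traf6 KO libraries. Ins1 and Ins2 together took 5.07%, 6.42% and 10.3% of counts in Traf6 KO 1 to 3, against 16.2%, 18.1%, 20.5% and 17.9% in control 1 to 4. With acinar marker counts left out of the total, the shares were 11.7%, 11.3% and 10.4% in Traf6 KO and 20.3%, 18.1%, 20.6% and 18.5% in control. On that basis the Traf6 KO libraries lay close together and below each of the controls, whether acinar-rich or not. The 9 beta-cell markers, among them Iapp and no insulin gene, summed to 14977 to 16906 CPM in Traf6 KO and 17093 to 22171 CPM in control. That separation rests on Iapp, since the other 8 markers summed to 5503, 5980.5 and 5912 CPM in Traf6 KO 1 to 3, against 6599, 6667, 6543 and 5768 CPM in control 1 to 4, where the groups overlapped through the library labelled control 4. The 6 processing genes together took 0.992%, 1.153% and 1.04% of non-acinar counts in Traf6 KO 1 to 3, against 1.32%, 1.19%, 1.24% and 1.10% in control 1 to 4, where the groups overlapped. Exact 95% binomial intervals of the shares of all counts were at most 0.0319 points wide and cover counting error only. In islets as a whole, fewer beta cells and less insulin RNA per beta cell cannot be told apart.

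Ins1 (ENSMUSG00000035804, chromosome 19, 52264297 to 52265476 on GRCm38) is the insulin gene that lacks the second intron. It had 14731, 12915.5 and 10842 CPM in Traf6 KO 1 to 3, against 44548, 36488, 41107 and 20911 CPM in control 1 to 4. All Traf6 KO values were below all control values, and the library labelled control 4 stood apart from the other controls, nearer to the Traf6 KO level. The edgeR test gave a log2 fold change of -1.48 ± 0.49 (SE, adjusted p = 0.235), which did not pass the threshold of 0.05. It was -1.66 without the library labelled control 4. In all libraries it was -1.46 ± 0.26 with DESeq2 and -1.42 ± 0.26 with limma-voom (SE).

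Ins2 (ENSMUSG00000000215, chromosome 7, 142678656 to 142743381), the gene in common with other mammals, had 86701.5, 73882 and 65117 CPM in Traf6 KO 1 to 3, against 124911, 101943.5, 122438 and 119314 CPM in control 1 to 4. The groups did not overlap, and the library labelled control 4 lay among the other controls. The lowest Traf6 KO value came from Traf6 KO 3, the library with the fewest acinar counts of the 3. With edgeR the log2 difference came to -0.64 ± 0.62 (SE, adjusted p = 0.637), and it was -0.82 ± 0.21 (SE) without the 3 acinar-rich libraries, which leaves Traf6 KO 3 as the only library of its genotype. The SE depended on the fit. The difference was -0.62 ± 0.14 with DESeq2, -0.63 ± 0.17 with limma-voom and -0.79 ± 0.20 in edgeR with the acinar covariate (SE).

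**Figure D1:**
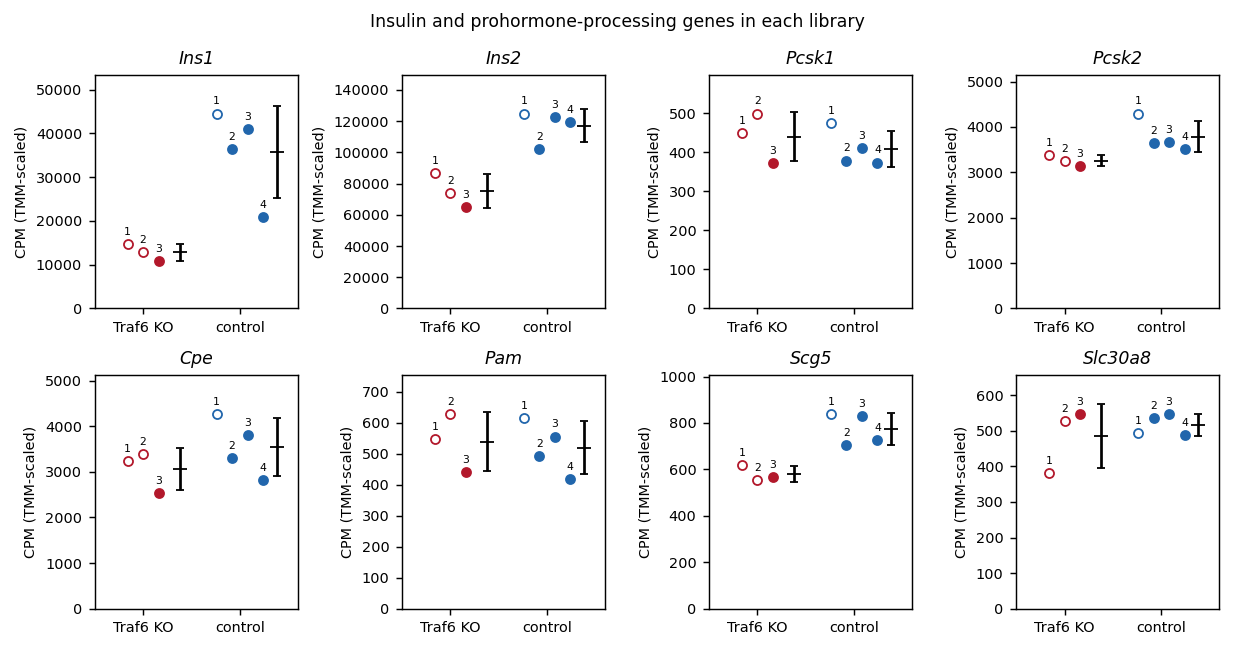
Level of each gene (vertical axes, TMM-scaled CPM from 0) in 3 Traf6 KO and 4 control libraries, numbered as in the labels. Open points are acinar-rich libraries and bars are mean ± SD. Traf6 KO points lie below all control points for Ins1, Ins2, Pcsk2 and Scg5, and overlap with control points for Pcsk1, Cpe, Pam and Slc30a8.

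Within a library, the Ins1 to Ins2 ratio of counts does not depend on scaling or on the acinar share. It was 0.170, 0.175 and 0.166 in Traf6 KO 1 to 3, against 0.357, 0.358, 0.336 and 0.175 in control 1 to 4. As a share of insulin counts, Ins1 made up 14.5%, 14.9% and 14.3% in Traf6 KO and 26.3%, 26.4%, 25.1% and 14.9% in control, with exact 95% binomial intervals at most 0.131 points wide. The library labelled control 4 stood just above Traf6 KO 2 and far below the other 3 controls. The log2 ratio averaged -2.55 ± 0.035 in Traf6 KO and -1.76 ± 0.50 in control (SD, n = 3 and 4), a difference of -0.79 (exact two-sided permutation p = 0.0571). That is the smallest p this test can give for 3 against 4 libraries, since it takes 2 times the smaller tail. Adjusted over the 2 ratios tested, it stays at 0.0571. Without the library labelled control 4 the difference was -1.04 (exact p = 0.1, the smallest possible there). By the first letter of the animal tags in the labels, 5 libraries carry Q or R and 2 carry S. Among Q and R libraries the difference was -1.02 (exact p = 0.2, the smallest possible), and the S libraries were Traf6 KO 3 at 0.166 and the library labelled control 4 at 0.175.

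**Figure D2:**
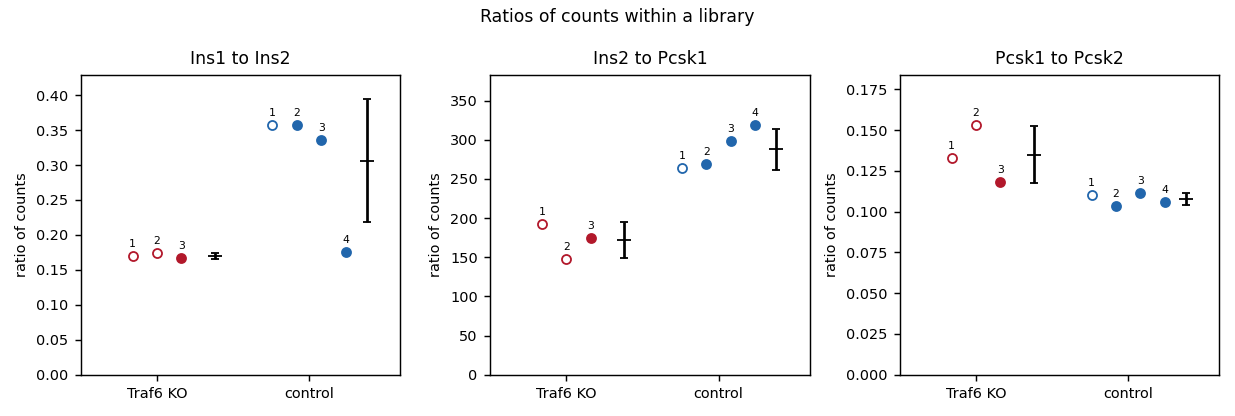
Ratios of counts (vertical axes, from 0) of Ins1 to Ins2, Ins2 to Pcsk1 and Pcsk1 to Pcsk2 in 3 Traf6 KO and 4 control libraries. Open points are acinar-rich libraries and bars are mean ± SD. The library labelled control 4 stands at 0.175 for Ins1 to Ins2, beside the Traf6 KO libraries, and at 319.5 for Ins2 to Pcsk1, the highest of the 7.

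Set against the processing genes, both insulin genes were lower in Traf6 KO. The ratio of Ins1 to Pcsk1 was 32.8, 25.9 and 29.1 in Traf6 KO 1 to 3, against 94.1, 96.4, 100.4 and 56.0 in control 1 to 4. The ratio of Ins2 to Pcsk1 was 193, 148 and 175 in Traf6 KO, against 264, 269, 299 and 319.5 in control. The library labelled control 4 was thus the lowest control by Ins1 and the highest by Ins2. The ratio of Ins2 to Cpe was 26.8, 21.8 and 25.7 in Traf6 KO, against 29.2, 30.9, 32.2 and 42.3 in control, again with the library labelled control 4 highest.

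Of the 12 ratios of an insulin gene to a processing gene, 11 were lower in every Traf6 KO library than in every control. The exception was Ins2 to Slc30a8, at 228, 140 and 119 in Traf6 KO and 254, 190, 224 and 244 in control, where Traf6 KO 1 lay among the controls. Folds of these ratios, Traf6 KO over control, ran from 0.345 for Ins1 to Pcsk1 to 0.852 for Ins2 to Scg5. Such a pattern was common across the table. Set over Ins1, 68.8% of 16202 other genes were higher in every Traf6 KO library than in every control, and set over Ins2, 46.8% were, so the processing genes, with 6 of 6 and 5 of 6, are not shown to differ from genes at large.

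Pcsk2 (ENSMUSG00000027419, chromosome 2, 143546156 to 143816285), the convertase gene of both alpha and beta cells, was the most even of the 8 among Traf6 KO libraries. It had 3378, 3253 and 3146 CPM in Traf6 KO 1 to 3, against 4295, 3654, 3675 and 3516 CPM in control 1 to 4. The groups did not overlap, with control 1 well above the rest. The edgeR estimate on the log2 scale was -0.22 ± 0.24 (SE, adjusted p = 0.691), and -0.13 without control 1. In all libraries it was -0.19 ± 0.11 with DESeq2 and -0.21 ± 0.12 with limma-voom (SE). Reads from the annotated antisense genes Pcsk2os1 and Pcsk2os2 could be counted with it, since the strand setting is not given, but their counts came to at most 0.553% and 0.155% of the Pcsk2 count in any library.

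Pcsk1 (ENSMUSG00000021587, chromosome 13, 75089826 to 75134861), which encodes the convertase that acts mainly at the B chain to C-peptide site, did not go with Pcsk2. It had 449, 499 and 372 CPM in Traf6 KO 1 to 3, against 473.5, 379, 410 and 373.5 CPM in control 1 to 4. The higher values were those of the acinar-rich libraries in both genotypes, and the groups overlapped. By edgeR, Traf6 KO over control was 0.11 ± 0.16 on the log2 scale (SE, adjusted p = 0.781). It was -0.070 with the acinar level as a term in the fit and -0.066 without the 3 acinar-rich libraries, so its sign was not settled. It was 0.020 without Traf6 KO 2, 0.073 without control 2, 0.068 without the library labelled control 4, and 0.21 without Traf6 KO 3 or without control 1.

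The ratio of Pcsk1 to Pcsk2 was higher in every Traf6 KO library, at 0.133, 0.153 and 0.118 in Traf6 KO 1 to 3, against 0.110, 0.104, 0.112 and 0.106 in control 1 to 4. The control libraries lay close together, the acinar-rich control 1 among them, while Traf6 KO 3 was nearest to the controls. The log2 ratio averaged -2.90 ± 0.19 in Traf6 KO and -3.21 ± 0.049 in control (SD, n = 3 and 4), a difference of 0.31. The exact two-sided permutation p was 0.0571, the smallest that this test can give, and 0.0571 adjusted over the 2 ratios tested. Without the 3 acinar-rich libraries the difference was 0.14, from 1 Traf6 KO library. Among Q and R libraries it was 0.40 (exact p = 0.2), and in the S pair the ratio was 0.118 in Traf6 KO 3 and 0.106 in the library labelled control 4. Of 16202 genes, 15.4% were likewise higher over Pcsk2 in every Traf6 KO library. Alpha-cell markers, whose cells express Pcsk2, summed to 18383 to 27958 CPM in Traf6 KO and 16620 to 31316 CPM in control, and their part in the ratio was not tested.

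Scg5 (ENSMUSG00000023236, chromosome 2, 113776362 to 113829121) showed the clearest separation among the processing genes. It had 621, 556 and 567 CPM in Traf6 KO 1 to 3, against 839.5, 704.5, 828 and 728 CPM in control 1 to 4. The genotypes did not overlap, Traf6 KO being lower, and the library labelled control 4 kept to the other controls. The means were 581 ± 34.5 CPM in Traf6 KO and 775 ± 68.7 CPM in control (SD, n = 3 and 4). The edgeR test gave a log2 fold change of -0.42 ± 0.15 (SE, adjusted p = 0.264), and it was -0.47 with the acinar covariate and -0.42 without the acinar-rich libraries. In Traf6 KO the client of its product, Pcsk2, was higher relative to Scg5, with ratios of 5.44, 5.85 and 5.55 in Traf6 KO 1 to 3, against 5.12, 5.19, 4.44 and 4.83 in control 1 to 4. Over Scg5, 28.9% of 16202 genes were higher in every Traf6 KO library, as were Pcsk1, Pcsk2 and Pam of the other 5 processing genes.

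Cpe (ENSMUSG00000037852, chromosome 8, 64592542 to 64693054) had 3241, 3389 and 2533 CPM in Traf6 KO 1 to 3, against 4271, 3299, 3800 and 2818 CPM in control 1 to 4. The library labelled control 4 lay below Traf6 KO 1 and 2, so the groups overlapped. Within each genotype the S-tagged library was lowest. With edgeR the log2 difference came to -0.22 ± 0.27 (SE, adjusted p = 0.730), -0.40 with the acinar covariate, -0.099 without Traf6 KO 3 and -0.090 without control 1.

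Pam (ENSMUSG00000026335, chromosome 1, 97795114 to 98095646) nearly followed the order of Pcsk1. It had 547, 629 and 440.0 CPM in Traf6 KO 1 to 3, against 614, 492, 556 and 418 CPM in control 1 to 4. Traf6 KO 2 and control 1, both acinar-rich, were highest, and the S-tagged libraries were lowest. The edgeR estimate on the log2 scale was 0.051 ± 0.20 (SE, adjusted p = 0.920), and it was below 0 in 5 of 20 alternative fits, the fit with the acinar term among them (-0.13). The ratio of Cpe to Pam separated the genotypes, at 5.92, 5.39 and 5.76 in Traf6 KO 1 to 3, against 6.95, 6.71, 6.84 and 6.74 in control 1 to 4, and the library labelled control 4 kept to the other controls here. No test was made of this ratio, which was picked after its values were seen. Over Pam, 3.45% of 16202 genes were lower in every Traf6 KO library, as were Cpe and Scg5 of the processing genes.

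Slc30a8 (ENSMUSG00000022315, chromosome 15, 52295553 to 52335798) had 381, 527 and 546 CPM in Traf6 KO 1 to 3, against 493, 537, 548 and 488 CPM in control 1 to 4. Traf6 KO 1, with the largest acinar share, was lowest, and the other Traf6 KO libraries lay among the controls. By edgeR, Traf6 KO over control was -0.092 ± 0.17 on the log2 scale (SE, adjusted p = 0.825), and 0.063 without Traf6 KO 1.

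**Figure D3:**
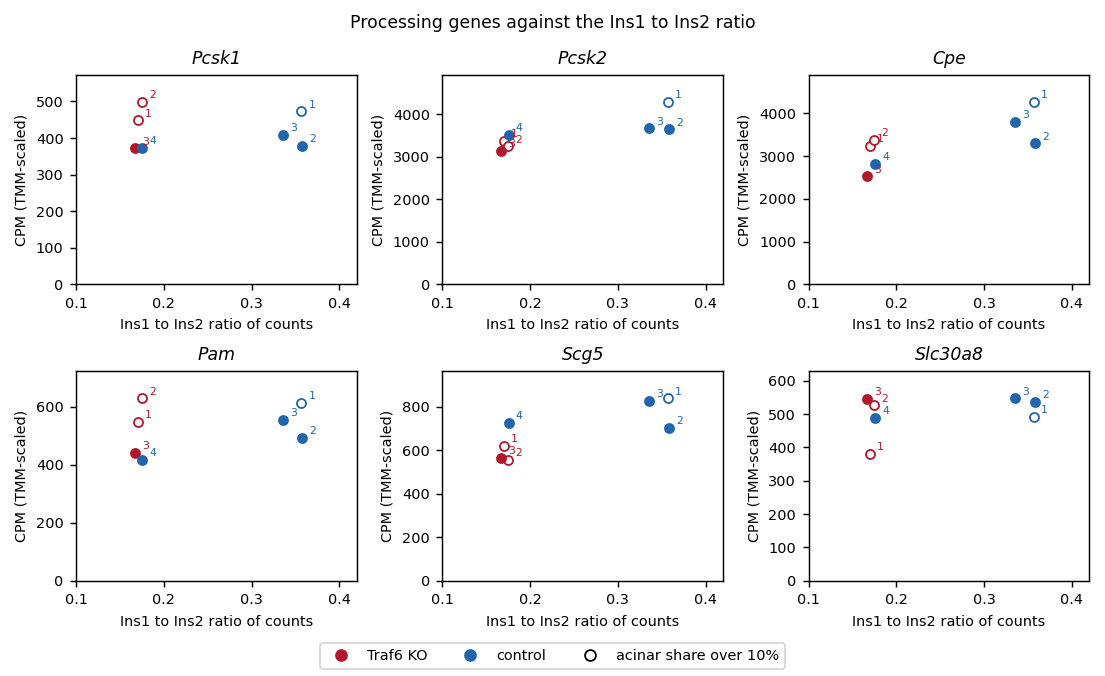
Level of each processing gene (vertical axes, TMM-scaled CPM from 0) against the Ins1 to Ins2 ratio of counts (horizontal axes) in 3 Traf6 KO and 4 control libraries. Libraries fall at 0.166 to 0.175, where the library labelled control 4 lies with Traf6 KO, or at 0.336 to 0.358, and Scg5 of the library labelled control 4 (728 CPM) is above the Traf6 KO libraries (556 to 621 CPM) at the same ratio.

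Since the Ins1 to Ins2 ratios form 2 separate clusters of 4 and 3 libraries, no correlation with a processing gene was computed. The library labelled control 4 allows a side-by-side reading: its Ins1 to Ins2 ratio was that of Traf6 KO, while its Ins2, Pcsk2 and Scg5 levels lay above every Traf6 KO library. Its Pcsk1 level (373.5 CPM) was close to that of Traf6 KO 3 (372 CPM), its Pam level (418 CPM) was the lowest of the 7, and its Cpe level (2818 CPM) lay between Traf6 KO 3 and Traf6 KO 1. In the S-tagged pair, Traf6 KO 3 over the library labelled control 4 gave folds of 0.5185 for Ins1, 0.546 for Ins2, 0.7785 for Scg5, 0.895 for Pcsk2, 0.899 for Cpe, 0.997 for Pcsk1, 1.05 for Pam and 1.12 for Slc30a8, from 1 library each.

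Across all genes, edgeR called 0% of 16203 genes at an adjusted p under 0.05, and 0 of the 8, with 2589 genes at an unadjusted p under 0.05. At that unadjusted level of the edgeR test, Ins1 and Scg5, 2 of the 8 genes, were lower in Traf6 KO, as were 7.17% of all genes. Fold changes were below 0 for 6 of the 8 and for 49.3% of all genes, with medians of -0.22 and 0.0051. Groups did not overlap, with Traf6 KO below, for 4 of the 8 and for 8.68% of all genes. For each of those 4 the exact two-sided permutation p was 0.0571, the smallest that this test can give. Any gene whose groups do not overlap has that p, so it adds nothing to the lack of overlap. The DESeq2 Wald test called 3 of the 8 lower, Ins1 (adjusted p = 1.46e-05), Ins2 (0.00197) and Scg5 (0.0173), beside 1.79% of genes called lower. Limma-voom with sample quality weights called the same 3 lower (adjusted p = 0.0306, 0.0465 and 0.0426), beside 2.33% of genes called lower. Limma-voom without weights called 0 genes, with 2319 at an unadjusted p under 0.05. Over 20 alternative fits the adjusted p ran from 1.46e-05 to 0.5003 for Ins1, from 0.00197 to 0.789 for Ins2 and from 0.0173 to 0.532 for Scg5.

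**Figure D4:**
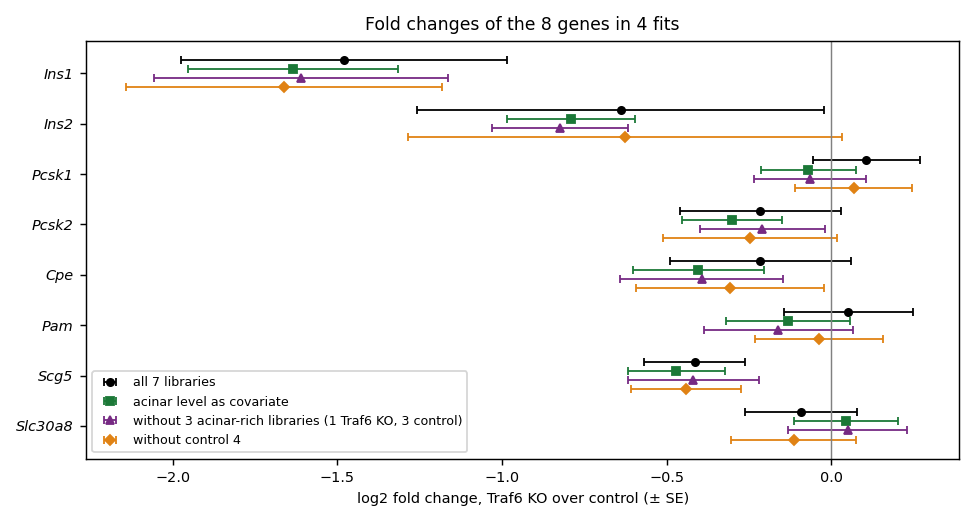
Log2 fold change, Traf6 KO over control (horizontal axis, ± SE), of the 8 genes by edgeR in all 7 libraries and in 3 alternative fits. Ins1, Ins2, Pcsk2, Cpe and Scg5 stay left of 0 in these 4 fits, while Pcsk1, Pam and Slc30a8 lie on either side of it, between -0.16 and 0.11.

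Per kilobase of annotated exon, the level in Traf6 KO averaged 57342.5 ± 8274 CPM for Ins2, 12080.5 ± 1833 for Ins1, 1171 ± 175 for Cpe, 412 ± 14.7 for Pcsk2, 370 ± 21.99 for Scg5, 246 ± 45.8 for Slc30a8, 78.5 ± 11.4 for Pcsk1 and 45.3 ± 7.97 for Pam (SD, n = 3). In control it was 89293 ± 7922.5 for Ins2, 33676 ± 9828 for Ins1, 1359.5 ± 240.5 for Cpe, 494 ± 43.8 for Scg5, 478.5 ± 43.9 for Pcsk2, 262 ± 15.4 for Slc30a8, 73.0 ± 8.21 for Pcsk1 and 43.7 ± 7.10 for Pam (SD, n = 4). Scg5 and Pcsk2 did not differ beyond their spread in control, while on this scale each other step of that order, and each step in Traf6 KO, exceeded the sum of the SDs of the neighbours. With the median length of annotated coding transcripts as divisor, Pcsk2 stood above Scg5 in control (801 ± 73.6 and 642 ± 56.9 CPM per kilobase) and Pam above Pcsk1 (240 ± 38.9 and 148.5 ± 16.7), and in Traf6 KO Pam was level with Slc30a8 (248 ± 43.7 and 246 ± 45.8), so the order among these genes depends on the annotation used. The annotated Ins2 transcripts span 1312 exonic bases against a median of 478 each, so its distance from Ins1 is uncertain as well.

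Other genes of prohormone handling were read from lists, and 0 genes of any list passed the edgeR test over all genes. Of 14 tested proteases and enzymes of peptide maturation, 5 were below 0 and 9 above, with a median log2 fold change of 0.069. Pcsk1n, which encodes proSAAS, an inhibitor of PC1/3, had 1052, 1001 and 1161 CPM in Traf6 KO 1 to 3, against 1645, 1701, 1784 and 1764 CPM in control 1 to 4. Its groups did not overlap, the library labelled control 4 kept to the other controls, and edgeR put the log2 difference at -0.69 ± 0.18 (SE, adjusted p = 0.201). Ide, the gene of the insulin-degrading enzyme, had 60.4, 51.1 and 37.8 CPM in Traf6 KO 1 to 3, against 26.7, 25.4, 23.2 and 20.7 CPM in control 1 to 4, with an edgeR log2 difference of 1.05 ± 0.17 (SE, adjusted p = 0.1765). Its Traf6 KO values followed the order of the acinar shares, and the part of exocrine RNA in it was not tested. Pcsk4, a convertase gene known from germ cells, was at -0.60 ± 0.23 and the carboxypeptidase gene Cpd at 0.35 ± 0.15 (edgeR adjusted p = 0.275 and 0.302).

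Of 8 granins and granule membrane proteins, 6 were below 0, with a median of -0.21, near that of the 8 insulin and processing genes. Resp18, of the endocrine secretory pathway, had 530, 581 and 612 CPM in Traf6 KO 1 to 3, against 852, 801.5, 699 and 741 CPM in control 1 to 4, with an edgeR log2 difference of -0.43 ± 0.16 (SE, adjusted p = 0.259). The granin gene Scg2 was at -0.40 ± 0.27, the granule membrane phosphatase-like gene Ptprn at -0.21 ± 0.15 and Ptprn2 at 0.22 ± 0.19. Groups did not overlap, with Traf6 KO lower, for 4 of the 8, against 8.68% of all genes. The 6 other islet prohormone genes were all below 0, with a median of -0.31. Among them were Sst (somatostatin) at -0.36 ± 0.29, Pyy (peptide YY) at -0.25 ± 0.21, Ghrl (ghrelin) at -0.92 ± 0.79 and Iapp at -0.39 ± 0.35. Ghrl was low, with 1.72, 0.917 and 3.53 CPM in Traf6 KO 1 to 3, against 2.10, 1.48, 2.05 and 10.3 CPM in control 1 to 4. Its highest value was that of the library labelled control 4, and Traf6 KO 3 lay above the other controls. Iapp, whose product amylin is cut by the same convertases and amidated by PAM, had 10915, 10926 and 9065 CPM in Traf6 KO 1 to 3, against 15572, 12303, 14707 and 11326 CPM in control 1 to 4, with no overlap.

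Of 10 transcription factors of the insulin genes, 8 were below 0 with a median of -0.19. Nkx6-1 was at -0.35 ± 0.17, Nkx2-2 at -0.34 ± 0.18, Pdx1 at -0.21 ± 0.15 and Glis3 at 0.35 ± 0.31. Nkx6-1 had 388, 437 and 554 CPM in Traf6 KO 1 to 3, against 614, 596, 562 and 566 CPM in control 1 to 4, where Traf6 KO 3 was just below the lowest control and both acinar-rich Traf6 KO libraries were lower. Pdx1 had 107, 126 and 165 CPM in Traf6 KO 1 to 3, with Traf6 KO 3 above every control (150 to 156.5 CPM). Nkx2-2 had 118, 146 and 186 CPM there, with Traf6 KO 3 among the controls (160 to 212 CPM). Glis3 had 19.3, 45.6 and 51.0 CPM there, against 22.65 to 33.65 CPM in control. Of 16 genes of proinsulin folding, 11 were above 0 with a median of 0.12. Prdx4, a peroxiredoxin of the endoplasmic reticulum, had 227, 130 and 17.9 CPM in Traf6 KO 1 to 3, against 56.1, 17.1, 17.6 and 28.02 CPM in control 1 to 4, an order that went with the acinar share in the acinar-rich libraries (log2 fold change 2.07 ± 0.75). The chaperone-related genes Dnajc3 and Creld2 were at 0.50 ± 0.22 and 0.40 ± 0.17, and the oxidase gene Ero1a at 0.30 ± 0.15. Dnajc3 had 538, 418 and 289 CPM in Traf6 KO 1 to 3, with Traf6 KO 3 among the controls (243.5 to 316 CPM). For Creld2 it was Traf6 KO 2 (86.75 CPM) that lay among the controls (71.6 to 97.6 CPM). For Ero1a it was Traf6 KO 1 (29.8 CPM, controls 26.5 to 34.6 CPM). The part of acinar RNA in the values of both lists was not tested.

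Of 22 tested zinc transporters and metallothioneins other than Slc30a8, 15 were above 0 with a median of 0.32, the highest of these lists. The exporter gene Slc30a1 had 22.6, 26.2 and 24.9 CPM in Traf6 KO 1 to 3, against 16.5, 16.4, 20.2 and 21.1 CPM in control 1 to 4, with no overlap and an edgeR log2 difference of 0.41 ± 0.13 (SE, adjusted p = 0.2265). It was the only gene of the list with every Traf6 KO library above every control. For 2 genes of the list every Traf6 KO library was below, as for 8.68% of all genes. Slc30a4 stood at 33.9, 34.9 and 24.0 CPM in Traf6 KO, against 24.3, 20.7, 19.7 and 20.7 CPM in control (0.53 ± 0.15). Slc39a11 and Slc39a14, genes of zinc importers of the ZIP family, were at 1.46 ± 0.45 and 0.59 ± 0.20. Slc39a11 was highest in Traf6 KO 1 (79.7 CPM) and Traf6 KO 2 (43.8 CPM), while Traf6 KO 3 (16.4 CPM) lay among the controls (14.1 to 22.8 CPM). The part of acinar RNA in these values was not tested.

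**Figure D5:**
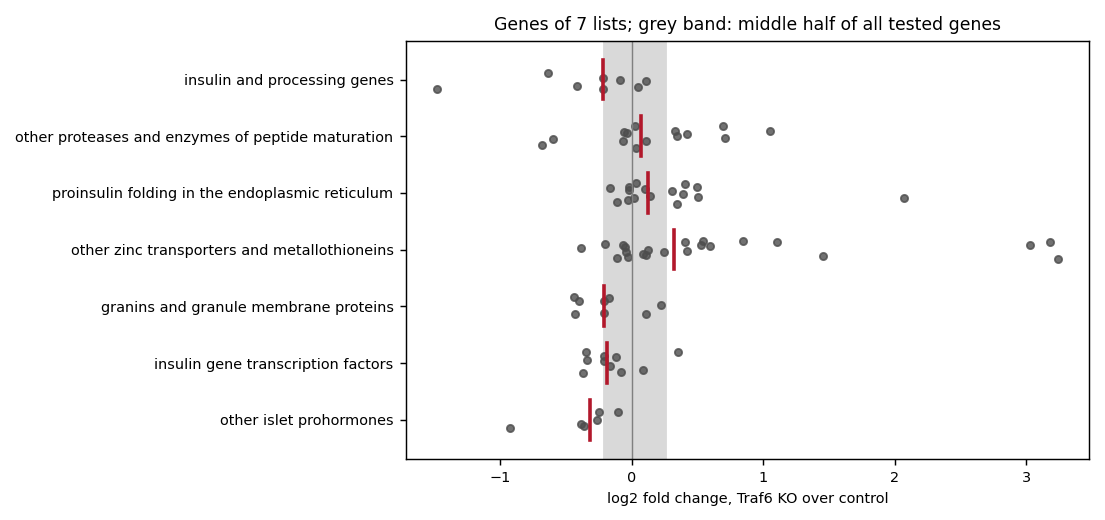
Log2 fold change, Traf6 KO over control (horizontal axis), of every tested gene in 7 lists (points, spread at random within a row). Red bars are medians, the grey band runs from -0.21 to 0.26 and holds the middle part of all tested genes between their quartiles, and the grey line is their median. Medians of the insulin and processing genes (-0.22), the granins (-0.21) and the other islet prohormones (-0.31) lie left of 0, and that of the zinc list (0.32) lies right of it.

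The genes whose log2 CPM went most closely with each of the 8 across the 7 libraries, among 8706 genes with a mean of at least 10 CPM, are given as a description, since all points share the same libraries and their acinar shares. For Ins1 they were Ndufb1, Ube2l3 and Srp14 (Pearson r = 0.986, 0.984 and 0.981), and for Ins2 Cox14, Trmt12 and Mrpl49 (0.995, 0.990 and 0.9865). For Pcsk1 they were Colgalt1, Ubfd1 and Jam2 (0.992, 0.980 and 0.972), and for Pcsk2 Txndc12, Mtg1 and Gpat4 (0.960, 0.953 and 0.951). For Cpe they included Vipas39 and Ptdss2 (0.981 and 0.9755), and for Pam they were Galnt10, Smug1 and Tes (0.971, 0.960 and 0.955). For Scg5 they were Nsmce3, Ccdc181 and Rnf7 (0.990, 0.982 and 0.982), and for Slc30a8 Cyp20a1, Sdk1 and Cerkl (0.989, 0.988 and 0.982). None of the 8 genes appeared among the 3 closest genes of another.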

How the data were processed

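Whole-number counts per gene, not normalized, were deposited by the authors as 1 table with 1 column for each of 7 libraries, 3 Traf6 KO and 4 control. The submitters' processing notes name STAR 2.6.1b, RSEM 1.3.1, FastQC and GRCm38 without roles, so the counts may be rounded estimates. No source used here gives the annotation, the strand setting or the filters. Each library was taken as 1 mouse by its animal tag. Libraries from the same mouse would make these p-values reflect technical spread. The closest pair of libraries differed by more than sampling noise (chi-square of 21.8 per gene).

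Counts were fitted across all genes with edgeR 4.0.16 under R 4.3.3 (the quasi-likelihood F test, TMM, genotype as the only term, filterByExpr with a minimum count of 10 and total of 15), and p-values were Benjamini-Hochberg adjusted over all 16203 genes tested. Each SE is the size of the fold change divided by the root of F. The script was tested on simulated data. The exact permutation tests are two-sided over 35 splits, for 2 ratios and for single genes. Their p is 2 times the smaller tail, and each smallest possible p refers to that definition. A two-sided p by the absolute difference can go lower with unequal groups and was not computed. DESeq2 1.42.0 and limma 3.58.1 were alternatives, along with other scaling factors, filters, covariates and sets of libraries. Coordinates and lengths came from GENCODE M21, which held 55227 of 55487 identifiers, and promoters from RefSeq, which matched 5 of the 8 genes. The genes, lists and tests were chosen with earlier results of these data known. The genes named are the 8, Traf6, up to 4 of each list with the smallest p, and the 3 genes most like each of the 8, of which 1 for Cpe is not reported here. Iapp is among those 4.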

Additional observations from a re-analysis of the deposited data

Results flagged for a closer look

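The Ins1 to Ins2 ratio of the library labelled control 4, at 0.175, lay far below that of the other 3 controls (0.336 to 0.358). The gap to the nearest control was 0.8785 of the range of the 4 controls, above the Dixon limit for 4 values. It was the only one among 10 sets of 4 control values examined (the levels of the 8 genes and 2 ratios), where chance flags about 1 in 20. The level of Ins1 in that library (20911 CPM) did not pass that limit.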

How the results depend on the processing

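Each of the 8 fold changes was recomputed in 20 alternative fits. Ins1, Ins2, Pcsk2, Cpe and Scg5 kept their sign in all 20. Pcsk1 turned to -0.070 with the acinar covariate and -0.066 without the acinar-rich libraries. Pam turned to -0.13 and -0.16 in these fits, to -0.047 with the replicate block, -0.061 without Traf6 KO 2 and -0.037 without the library labelled control 4. Slc30a8 turned to 0.044 and 0.049 in these fits and to 0.063 without Traf6 KO 1. With 1 library left out, Pam ran from -0.061 to 0.18 and Slc30a8 from -0.19 to 0.063. The cause was not tested. Over all genes, 744 were called by DESeq2, 1046 with quality weights, 5 with the replicate block over the 6 libraries numbered 1 to 3, 3 with the acinar covariate and 67 without the acinar-rich libraries, against 0 in all 7 libraries by edgeR. Leaving out 1 library gave 0 to 701 calls, the 701 without Traf6 KO 3. Of the 8 genes, 3 were called by DESeq2 and 3 with quality weights, and 0 in each other fit, the fits without 1 library included. Groups apart in all 7 libraries stay apart when 1 is left out. Ins1, Ins2, Pcsk2 and Scg5 were thus bound to keep every Traf6 KO library below every control. None of the other genes of the 8 joined them, and 10% to 17.7% of all genes were so with 1 library left out. In an addition made after seeing the data, Traf6 KO 3 lay below the 3 acinar-poor controls for 6 of the 8 and for 33.4% of all genes.

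Library numbers are shared between genotypes. Same-numbered libraries deviated together over genes for numbers 1 and 3 (r = 0.597 and 0.454) but not for number 2 (-0.177). Some libraries of unlike number did so as well, Traf6 KO 2 with control 1 (0.533) and Traf6 KO 3 with control 2 (0.482). The remaining pairs of unlike number were at 0.110 or below. Traf6 KO 1, Traf6 KO 2 and control 1 are the acinar-rich libraries, so these correlations cannot tell a shared number from a like acinar share. No source used here says that the numbers mark pairs, and they were not taken as pairs. The block leaves out the library labelled control 4, and with the replicate block the Ins1 to Ins2 difference was -1.04 and the Pcsk1 to Pcsk2 difference 0.31 (exact p = 0.25, the smallest possible for 3 pairs). Leaving out that library alone must give the same differences, since a mean of paired differences is the difference of the means. The block is thus no separate check of their size. With 1 library left out the Ins1 to Ins2 difference ran from -1.04 to -0.70 and the Pcsk1 to Pcsk2 difference from 0.22 to 0.40. Of the 3 Traf6 KO libraries 2 are acinar-rich, so fits without them rest on 1 library.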
